A study of Rattus norvegicus with 6 samples.

Results

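A set of 36 genes that mark the walls of brain blood vessels and the membranes around the brain was followed in the amygdala of rats after acute ethanol. They were chosen by symbol, as known markers of endothelial cells (21 genes), of mural cells (9 genes) and of fibroblasts and leptomeningeal cells (6 genes), and were 36 of the 38445 genes in the count files. All 36 were found, each under 1 NCBI gene identifier, and 35 had enough reads to be tested among 18141 genes. The donors were adult male Sprague Dawley rats, labelled WT, killed 1 h after an intraperitoneal dose of saline (control group) or of 1 g/kg ethanol. Every library combined amygdala RNA of 2 animals, so 6 rats per group gave 3 control and 3 ethanol libraries, and no rat contributed to both groups. Each library is therefore an average over a pair of male rats of 1 strain at a single dose and time, and the p-values measure the spread between these pools.

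Brain endothelial cells form the blood-brain barrier: tight junctions seal the gaps between them, and transporters in their membranes decide which nutrients enter and which drugs are pumped back into the blood. Pericytes and smooth muscle cells, together called mural cells, wrap the endothelial tube and control its stability and diameter. Fibroblasts lie around the larger vessels and in the leptomeninges, the thin membranes over the brain surface, where they make collagens and small proteoglycans. In RNA from whole tissue, fewer cells of a type and less RNA per cell cannot be told apart.

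The libraries held 62576504 to 70755739 reads assigned to genes, and 3 reads corresponded to 0.0424 to 0.0479 CPM (counts scaled to library size), a floor that covers counting error only. The tested members had between 180 reads (Kcnj8) and 11308 reads (Slc2a1) per library. Markers of other cells also differed between libraries. Summed CPM of 12 choroid plexus markers was 544, 1179 and 924 in the controls and 15.01, 16.3 and 506 in the ethanol libraries, and 11 of 11 tested ones were lower after ethanol, 5 of them with an unadjusted p below 0.05 (Folr1, Kl, Kcnj13, Kcne2 and Sostdc1, named after their values were seen). Ttr, the leading choroid plexus transcript, had 462, 996 and 817 CPM in the controls and 5.42, 4.34 and 425 CPM after ethanol, and Clic6, the next, 11.3, 29.7 and 15.05 against 1.37, 1.29 and 12.9 CPM. All 8 ciliated and ependymal markers were lower, 5 with an unadjusted p below 0.05 (Foxj1 and, named after their values were seen, Tmem212, Dynlrb2, Cfap126 and Spag17), with Foxj1 at a log2 fold change of −0.48 ± 0.20 (SE) and Dnah12 at −0.30 ± 0.24. Among all tested genes 2.61% were lower at an edgeR unadjusted p below 0.05. Oligodendrocyte markers (summed CPM 3794 to 8857 in controls and 4634 to 10228 after ethanol) varied widely within both groups. The part of these differences in the results on vascular genes was not tested.

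The promoters of Slc2a1 and Kdr are shown because only theirs could be matched among the 5 members with an unadjusted p below 0.05. Those of Mfsd2a, Slco1c1 and Dcn were not available. Slc2a1 and Kdr, a glucose transporter and a growth factor receptor that endothelial cells express, differed in opposite directions below. Each line is 300 bases of the RefSeq annotation of the GRCr8 build on the plus strand, from 250 bases before to 50 bases after the start site, chr5:138002272-138002571 for Slc2a1 and chr14:32571813-32572112 for Kdr. Capitals mark the letters ACGTG, the core of the site bound by hypoxia-inducible factors, found on either strand.
Slc2a1: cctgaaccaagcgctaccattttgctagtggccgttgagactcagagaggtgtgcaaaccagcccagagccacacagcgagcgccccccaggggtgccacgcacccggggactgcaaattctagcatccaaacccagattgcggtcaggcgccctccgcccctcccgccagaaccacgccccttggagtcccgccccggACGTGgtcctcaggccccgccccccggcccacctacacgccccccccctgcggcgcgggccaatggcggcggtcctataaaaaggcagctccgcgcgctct
Kdr: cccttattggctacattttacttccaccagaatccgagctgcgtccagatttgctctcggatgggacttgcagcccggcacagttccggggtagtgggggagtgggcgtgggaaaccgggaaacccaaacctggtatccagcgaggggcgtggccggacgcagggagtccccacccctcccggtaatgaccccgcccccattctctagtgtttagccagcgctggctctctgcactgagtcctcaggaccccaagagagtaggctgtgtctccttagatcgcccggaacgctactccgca
The Slc2a1 promoter held 1 ACGTG, whose first base lay 51 bases before the start site (position −51), and the Kdr promoter held none in this window. Of 33469 promoters of the same length, 19.3% held ACGTG. Promoters of 21 of the 36 members could be matched, and ACGTG was in 3 of them, Igfbp7, Slc2a1 and Slco1a4. Other motifs searched on both strands were GGGCGG, the GC box, in 14 of the 21 members and 33.1% of all promoters; CAGGAA, an ETS-type core, in 6 and 29.1%; TATAAA in 3 (Col1a2, Flt1 and Slc2a1) and 14.2%; AGAACA, a half-site of the glucocorticoid receptor, in 1 (Lum) and 20.7%; and the CArG box, the serum response factor site, in 0 and 1.64%. These are matches of letters and describe the windows only.

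Brain vessel transcripts were readily measured at the tissue level. Levels were compared between genes per transcript length, as TPM (a share of all transcripts), in the controls. Itm2a, which encodes a membrane protein enriched in brain endothelium, was highest at 139 ± 4.51 TPM (SD, n = 3), followed by Igfbp7, a secreted vascular protein, at 132 ± 6.35 TPM. Slc2a1 had 117 ± 5.51 TPM, the pericyte regulator of G-protein signalling Rgs5 109 ± 6.81 TPM, the thyroid hormone transporter Slco1c1 99.2 ± 5.11 TPM and the tight junction claudin Cldn5 91.4 ± 3.44 TPM. The ranges of mean ± SD of neighbours in this order overlapped, except those of Igfbp7 and Slc2a1. Tagln, the next at 44.97 ± 16.7 TPM, was well below. The lowest tested members were Kcnj8 (4.63 ± 0.301 TPM) and Abcc9 (4.42 ± 0.182 TPM), the pore and regulatory subunits of the pericyte ATP-sensitive potassium channel. Of the 35 tested members, 18 lay above the median of all tested genes, 13.6 TPM.

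**Figure D1:**
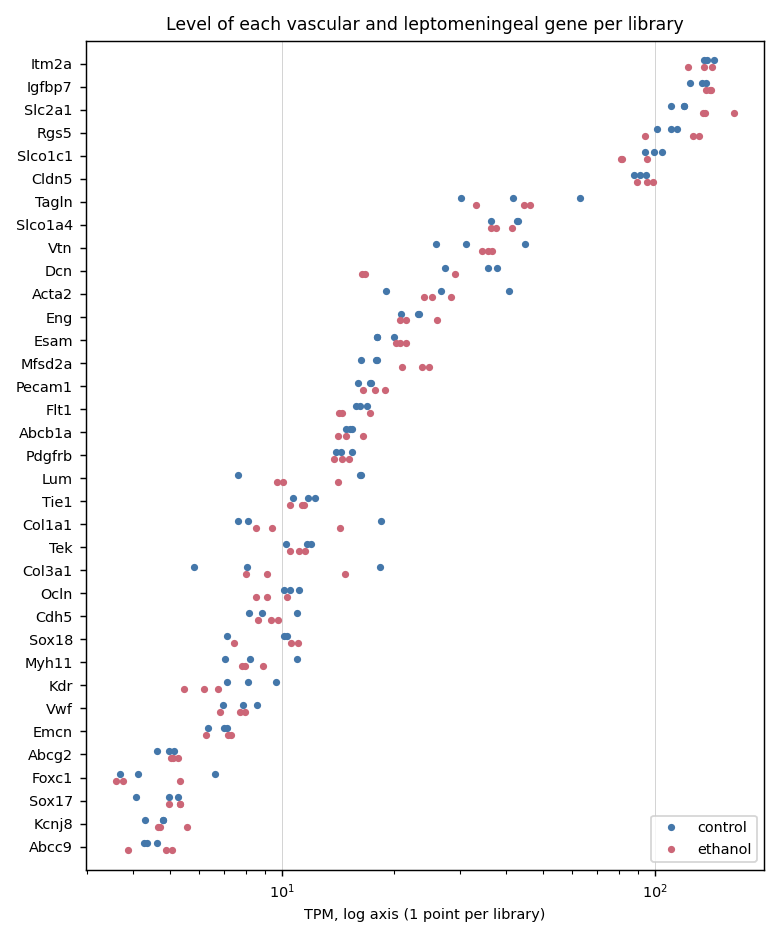
Level of each of the 35 tested genes in every library, in TPM on a log axis, ordered by the control mean, with 1 point per control (blue) or ethanol (red) library. Points of most endothelial genes lie close together, whereas those of the collagens, Tagln, Acta2 and Lum spread widely within a group.

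Few of these genes differed after ethanol by more than the spread of the libraries. By edgeR's quasi-likelihood test, 0 of the 35 members had an adjusted p below 0.2, the threshold of the study, as did 0% of all tested genes, of which none fell under 0.807. With limma the number of such genes was also 0, and it was 75 with DESeq2 and 77 with edgeR's likelihood ratio test, 1 of them a member (Mfsd2a) with both tools. The paper, by its own processing of its RNA-seq data, did report genes below the 0.2 threshold and measured selected ones by qPCR. With the unadjusted p of the quasi-likelihood test held below 0.05, 2 members were higher after ethanol (5.71% of those tested, against 1.59% of all tested genes) and 3 were lower (8.57% against 2.61%). The higher ones were Mfsd2a and Slc2a1 and the lower ones Kdr, Slco1c1 and Dcn. The 3 ethanol libraries lay wholly above the 3 controls for 4 members (11.4%, against 3.65% of all tested genes) and wholly below for 3 (8.57%, against 5.19%). With so few genes called, these shares are a description and were not tested. For a single gene, an exact permutation test of 3 against 3 libraries cannot give a 2-sided p below 0.1.

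**Figure D2:**
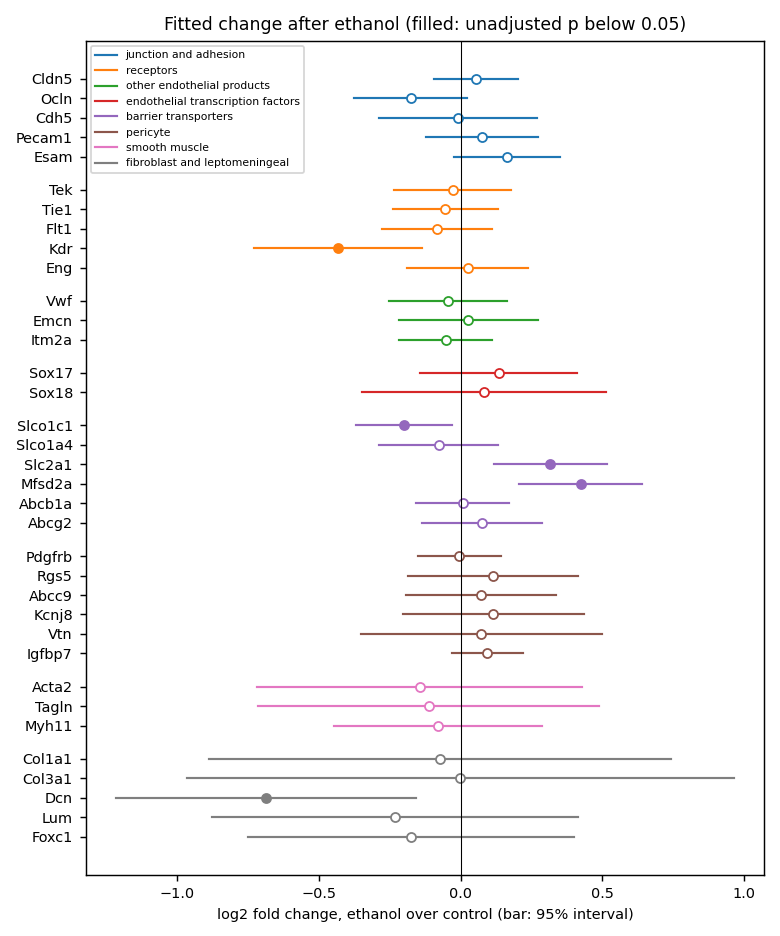
Fitted log2 fold change of each tested gene, ethanol over control, with its 95% interval from edgeR's quasi-likelihood fit, grouped and coloured by role, with filled points for the 5 genes with an unadjusted p below 0.05. Mfsd2a (0.42) and Slc2a1 (0.32) lie right of 0, Kdr (−0.43), Slco1c1 (−0.20) and Dcn (−0.69) left of it, and intervals widen from endothelial to smooth muscle and fibroblast genes.

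Among the barrier transporters, Mfsd2a and Slc2a1 were higher and Slco1c1 was lower after ethanol at an edgeR unadjusted p below 0.05. None had an adjusted p below 0.2 by the quasi-likelihood test. Mfsd2a (gene 298504, chr5:140642865-140657759 of Rnor_6.0, minus strand, 14 exon blocks), which carries lysophosphatidylcholine with omega-3 fatty acids into the brain and limits vesicle traffic across the endothelium, had 15.3, 14.5 and 13.5 CPM in the controls and 17.3, 20.8 and 19.97 CPM after ethanol. All 3 ethanol libraries lay above all 3 controls. The fitted difference was a log2 fold change of 0.42 ± 0.09 (SE; 95% interval 0.21 to 0.64), or 34.1% higher, with an edgeR unadjusted p of 0.00206, an adjusted p of 0.809 and an exact permutation p of 0.1. Over the alternatives the adjusted p ran from 0.0689 with DESeq2 to 1.0, and it was under 0.2 with DESeq2 and with edgeR's likelihood ratio test (0.128) and in no other fit. Leaving out any 1 library left Mfsd2a between 0.37 and 0.50.

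Slc2a1 (gene 24778, chr5:138154677-138182897, plus strand, 10 exon blocks), the glucose transporter GLUT1 of the barrier, which astrocytes also express, had 111, 116 and 117 CPM in the controls and 133, 134 and 162 CPM after ethanol. Ethanol replicate 3 stood highest, and the groups did not overlap. The log2 fold change was 0.32 ± 0.09 (95% interval 0.12 to 0.52), or 24.6% higher, with an edgeR unadjusted p of 0.00665 and an adjusted p of 0.966, and it was 0.22 with an unadjusted p of 0.00470 without ethanol replicate 3.

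Slco1c1 (gene 84511, chr4:175729709-175776749, plus strand, 15 exon blocks), also known as OATP1C1, which carries thyroxine across the barrier and is also made by astrocytes, had 100.5, 101 and 108 CPM in the controls and 98.6, 85.6 and 85.9 CPM after ethanol. The groups did not overlap, but ethanol replicate 1 lay just under the lowest control. Its log2 fold change was −0.20 ± 0.07 (95% interval −0.37 to −0.03; edgeR unadjusted p 0.0271, adjusted p 1.0), and the unadjusted p was 0.1004 without control replicate 3, 0.0951 without ethanol replicate 2 and 0.0680 without ethanol replicate 3. The remaining transporters differed less. Slco1a4, an organic anion carrier, had a log2 fold change of −0.08 ± 0.09. The drug efflux pumps Abcb1a (P-glycoprotein) and Abcg2 had 0.01 ± 0.07, with a 95% interval of −0.16 to 0.17, and 0.07 ± 0.09. Abcb1a and Slco1a4 have close paralogs, so their counts are less certain, since reads mapping to several places were not counted.

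**Figure D3:**
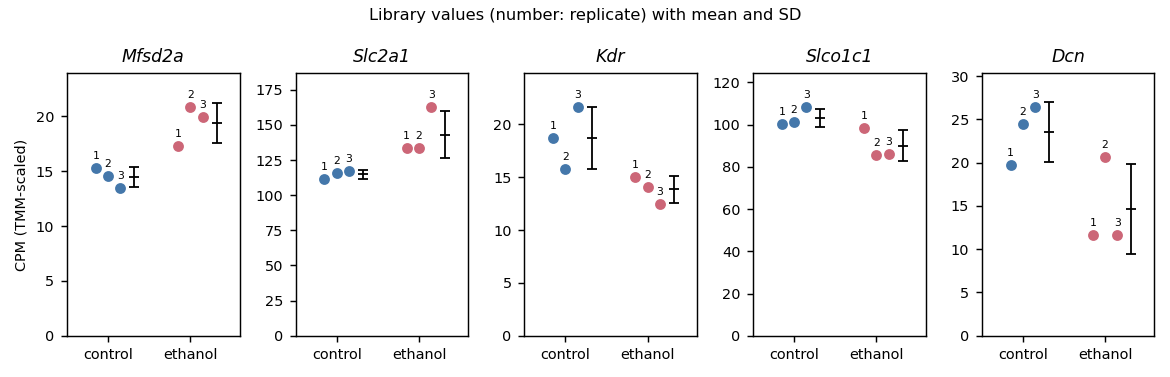
CPM of the 5 members with an unadjusted p below 0.05 in each library, numbered by replicate, with the mean and SD of each group in black and each axis starting at 0. Mfsd2a and Slc2a1 lie higher in the 3 ethanol libraries, Kdr and Slco1c1 lower, and for Dcn ethanol replicate 2 (20.6 CPM) overlaps the controls.

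Of the endothelial receptors, Kdr stood apart from its relatives. Kdr (gene 25589, chr14:34727677-34787127, plus strand, 30 exon blocks) encodes VEGFR2, the main signalling receptor for vascular endothelial growth factor A, and had 18.7, 15.7 and 21.6 CPM in the controls and 15.04, 14.1 and 12.5 CPM after ethanol. Every ethanol library lay below every control, although ethanol replicate 1 and control replicate 2 nearly met. The log2 fold change was −0.43 ± 0.13 (95% interval −0.73 to −0.14), or −25.9%, with an edgeR unadjusted p of 0.0101 and an adjusted p of 1.0. It stayed between −0.54 and −0.31 with any 1 library left out, and without control replicate 3 and ethanol replicate 2 together it was −0.33 with an unadjusted p of 0.0681.

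Flt1, the VEGFR1 receptor that binds the same ligand, had a log2 fold change of −0.09 ± 0.08, with 72.4 ± 4.21 CPM in the controls and 68.3 ± 6.79 CPM after ethanol (SD, n = 3). The angiopoietin receptor Tek had −0.03 ± 0.09, its relative Tie1 −0.05 ± 0.08, and Eng, the endoglin co-receptor for transforming growth factor beta, 0.02 ± 0.09. All 4 overlapped between the groups. Tek shares 609 exonic bases with Eqtn on the opposite strand, and counting was strand-specific. Of 13 tested genes for vascular ligands, 0 had an edgeR unadjusted p below 0.05, against 1.59% higher and 2.61% lower among all tested genes. With so few genes a count of 0 lies near those shares. Vegfa, the ligand of Kdr, had 197, 174 and 200 CPM in the controls and 170, 155 and 180 CPM after ethanol, overlapping, with a log2 fold change of −0.18 ± 0.08 (edgeR unadjusted p 0.0663), and Tgfb2 had 0.01 ± 0.08.

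Junction and identity genes of the endothelium were close to level. The tight junction gene Cldn5 had 51.3, 47.0 and 51.6 CPM in the controls and 53.6, 49.3 and 52.7 CPM after ethanol, a log2 fold change of 0.05 ± 0.06 with a 95% interval of −0.10 to 0.20. Ocln, which encodes occludin, had 17.4, 17.2 and 18.6 against 17.2, 14.4 and 15.5 CPM, lower without overlap, but ethanol replicate 1 and control replicate 2 were equal to 3 digits (log2 fold change −0.18 ± 0.09, edgeR unadjusted p 0.0750). Without ethanol replicate 1 it was −0.25 with an unadjusted p of 0.0297. Esam, an adhesion molecule of endothelial junctions, had 12.8, 12.2 and 13.8 against 14.2, 14.1 and 15.1 CPM, higher without overlap (0.16 ± 0.08, unadjusted p 0.0771). With all libraries the 95% intervals of Ocln and Esam included 0. VE-cadherin (Cdh5) had −0.01 ± 0.12 and Pecam1 0.08 ± 0.09. The other endothelial products were also near 0, with Vwf, the clotting factor carrier, at −0.05 ± 0.09, the sialomucin Emcn at 0.03 ± 0.11 and Itm2a at −0.05 ± 0.07. The transcription factors Sox17 and Sox18, which act in the specification of endothelium, had 0.13 ± 0.12 and 0.08 ± 0.19.

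The endothelial members as a whole were level between the groups. Summed CPM of the 21 endothelial members was 733, 695 and 742 in the controls and 756, 697 and 739 after ethanol, and their median log2 fold change was 0.01, as was that of all tested genes (0.01). When each gene was read against the median of the other endothelial members in the same library, Mfsd2a was 0.44 higher on the log2 scale, Slc2a1 0.33 higher, Kdr lower (−0.43) and Slco1c1 lower (−0.20), all 4 without overlap (exact permutation p 0.1 each, the smallest possible). On that scale Cldn5 (0.08), Pecam1 (0.10), Esam (0.18) and Ocln (−0.18) did not overlap between groups either, although Cldn5 and Pecam1 overlapped in CPM. That made 5 of 21 endothelial members higher without overlap on that scale (23.8%, against 2.92% of all tested genes) and 3 lower (14.3%, against 4.26%). The same genes set the scale, which takes out variation that they share and not that of other genes. The shares of members and of all tested genes are therefore not like for like. They are a description and were not tested.

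Further endothelial genes, none of them members, were also compared. Of 31 tested, 10 had values above 0 and 21 below 0. Their median log2 fold change was −0.04, against 0.01 for all tested genes. Against 1.59% higher and 2.61% lower among all tested genes, 0 of the 31 tested were higher and 2 were lower at an unadjusted p below 0.05. These were Podxl, a sialomucin of the luminal surface (48.7, 51.3 and 50.4 against 45.6, 43.4 and 44.2 CPM, log2 fold change −0.18 ± 0.05, p 0.0128), and Clec14a, an endothelial lectin (6.50, 6.38 and 7.21 against 5.66, 5.43 and 5.14 CPM, −0.31 ± 0.10, p 0.0161), both without overlap. Lef1, named after its values were seen, was the other without overlap (−0.12 ± 0.09). Against 3.65% higher and 5.19% lower among all tested genes, that made 0 of the 31 higher and 3 lower without overlap. The most abundant, the sphingosine-1-phosphate receptor S1pr1 and the junction scaffold Tjp1, had −0.07 ± 0.07 and −0.04 ± 0.06, and both are made by other brain cells too. All p-values here are unadjusted values of edgeR's quasi-likelihood test, and all adjusted values were at least 0.807.

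The genes that endothelium switches on with activation or flow included the additional gene with the smallest unadjusted p, Apold1. This early response gene of endothelial cells had 10.5, 10.3 and 7.003 CPM in the controls and 14.6, 16.4 and 16.5 CPM after ethanol. All 3 ethanol libraries were higher, with a log2 fold change of 0.77 ± 0.15 (edgeR unadjusted p 0.00117, adjusted p 0.807). The flow-induced factor Klf2 had 4.89, 7.65 and 6.07 against 7.96, 8.38 and 8.56 CPM, a log2 fold change of 0.42 ± 0.16 (unadjusted p 0.0295). Apold1 and Klf2 were the 2 of 9 tested genes higher at an edgeR unadjusted p below 0.05, against 1.59% of all tested genes. The other 7 had no unadjusted p below 0.05, among them the adhesion molecule Vcam1 (−0.05 ± 0.09), Icam1 (−0.17 ± 0.16) and Edn1 (−0.03 ± 0.16). Klf2 and Apold1 are not confined to endothelium, and which cells carried the difference was not tested. Of the red blood cell markers, 6 of 6 tested had values above 0, with Hba-a1 at 0.44 ± 0.15 (unadjusted p 0.0195) and Hbb at 0.27 ± 0.21, and the summed CPM of that list was 175 to 297 in controls and 301 to 338 after ethanol.

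Mural genes ranged from steady to variable across the libraries. The pericyte receptor Pdgfrb, which anchors pericytes to endothelium through platelet-derived growth factor, had 30.8, 30.4 and 33.0 CPM in the controls and 32.3, 31.5 and 30.2 CPM after ethanol, and its highest library was 1.09 times its lowest. Its log2 fold change was −0.00 ± 0.06, with a 95% interval of −0.15 to 0.14. Igfbp7 was higher without overlap (54.1, 55.4 and 57.6 against 59.2, 60.5 and 58.8 CPM), but by only 6.78% (0.09 ± 0.05, edgeR unadjusted p 0.119). It shares 90 exonic bases with Polr2b on the opposite strand.

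The other pericyte genes overlapped between groups. Rgs5 had 23.7, 20.7 and 23.9 against 26.3, 19.8 and 27.8 CPM (0.11 ± 0.13), and without ethanol replicate 2, its lowest library, the log2 fold change was 0.25 with an unadjusted p of 0.0295. Abcc9 and Kcnj8 had 0.07 ± 0.11 and 0.11 ± 0.14. Vtn, the matrix protein vitronectin, had 19.5, 15.5 and 27.4 against 20.8, 22.1 and 22.7 CPM (0.07 ± 0.18), and without control replicate 3 it was 0.32 with an unadjusted p of 0.0292. The calls on Rgs5 and Vtn therefore turned on 1 library each.

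The contractile genes of smooth muscle varied together across the controls. Smooth muscle actin, Acta2, had 14.6, 9.94 and 21.7 CPM in the controls and 12.8, 15.3 and 13.7 CPM after ethanol. Tagln, the actin-binding transgelin, had 17.2, 11.9 and 25.3 against 13.2, 18.1 and 18.9 CPM, and the smooth muscle myosin Myh11 21.7, 17.7 and 28.2 against 20.4, 20.3 and 23.3 CPM. For all 3, control replicate 3 was the highest and control replicate 2 the lowest control, and the ethanol libraries lay between them. Their log2 fold changes were −0.14 ± 0.25, −0.11 ± 0.26 and −0.08 ± 0.16, and these turned to 0.18, 0.20 and 0.11 without control replicate 3.

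Of 19 further mural genes, 2 were higher and 0 lower at an edgeR unadjusted p below 0.05, against 1.59% and 2.61% of all tested genes. Lmod1, a smooth muscle actin nucleator, had 8.17, 8.00 and 9.70 against 10.5, 10.03 and 15.6 CPM (0.48 ± 0.18, unadjusted p 0.0278), and Foxs1, a pericyte transcription factor at low level, 0.581, 0.620 and 0.710 against 0.810, 0.995 and 0.919 CPM (0.51 ± 0.18, unadjusted p 0.0231). Neither overlapped between the groups. Of the 19, 2 were higher and 0 lower without overlap, against 3.65% and 5.19% of all tested genes. The most abundant, Heyl and Mcam, both had 0.04, with an SE of 0.11 and 0.16.

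Fibroblast and leptomeningeal genes varied most from library to library. Col1a1, a chain of type I collagen, had 18.6, 16.7 and 40.9 CPM in the controls and 18.8, 32.3 and 21.2 CPM after ethanol, and Col3a1, the chain of type III collagen, 15.1, 10.4 and 33.3 against 14.5, 27.2 and 16.9 CPM. Control replicate 3 was highest for both, and ethanol replicate 2 came next. Foxc1, a transcription factor of meningeal development, followed the same order at the top with 6.44, 5.49 and 10.1 against 5.45, 8.19 and 5.82 CPM. The log2 fold changes were −0.07 ± 0.35, −0.00 ± 0.42 and −0.18 ± 0.25, and they became 0.45, 0.62 and 0.12 without control replicate 3.

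Dcn (gene 29139, chr7:38742250-38782282, plus strand, 9 exon blocks), the proteoglycan decorin of perivascular and meningeal fibroblasts, was the only one of the 5 tested with an unadjusted p below 0.05. It had 19.7, 24.5 and 26.4 CPM in the controls and 11.7, 20.6 and 11.7 CPM after ethanol. Ethanol replicates 1 and 3 were well below the controls and ethanol replicate 2 was among them. The log2 fold change was −0.69 ± 0.23 (95% interval −1.21 to −0.16; edgeR unadjusted p 0.0176, adjusted p 1.0, exact permutation p 0.2). The unadjusted p was 0.0560 without control replicate 3, 0.0601 without ethanol replicate 1 and 0.0548 without ethanol replicate 3, and the log2 fold change was −1.01 without ethanol replicate 2. Dcn and the summed choroid plexus markers were both below all controls in ethanol replicates 1 and 3, and in ethanol replicate 2 the markers were below all controls and Dcn was not. The part of such tissue in the Dcn values was not tested. Lum, the related proteoglycan lumican, had 5.19, 10.5 and 10.7 against 6.61, 9.44 and 6.51 CPM (−0.23 ± 0.28), overlapping. Without control replicate 1, its lowest library, the log2 fold change was −0.51 with an edgeR unadjusted p of 0.0227, and it was −0.08 without control replicate 2 and −0.07 without control replicate 3.

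Col1a2, the partner chain of Col1a1 in type I collagen, was not measured here. Its row (gene 84352, chr4:31534225-31569152, plus strand, 52 exon blocks) held 0 reads in all 6 libraries, while Col1a1 had 9755 reads and Col3a1 7689 reads over the 6 libraries. An unnamed gene model on the same chromosome (gene 103689932, chr4:29529504-29565272, plus strand) also had 52 exon blocks, 50 of them equal in length to blocks of Col1a2, and 0 reads. By the same comparison Col3a1 shared 42 and Col1a1 31 block lengths with Col1a2. The 3 gene models just before Col1a2 also had 0 reads in every library. Reads that map to more than 1 place were left out of the counts.

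**Figure D4:**
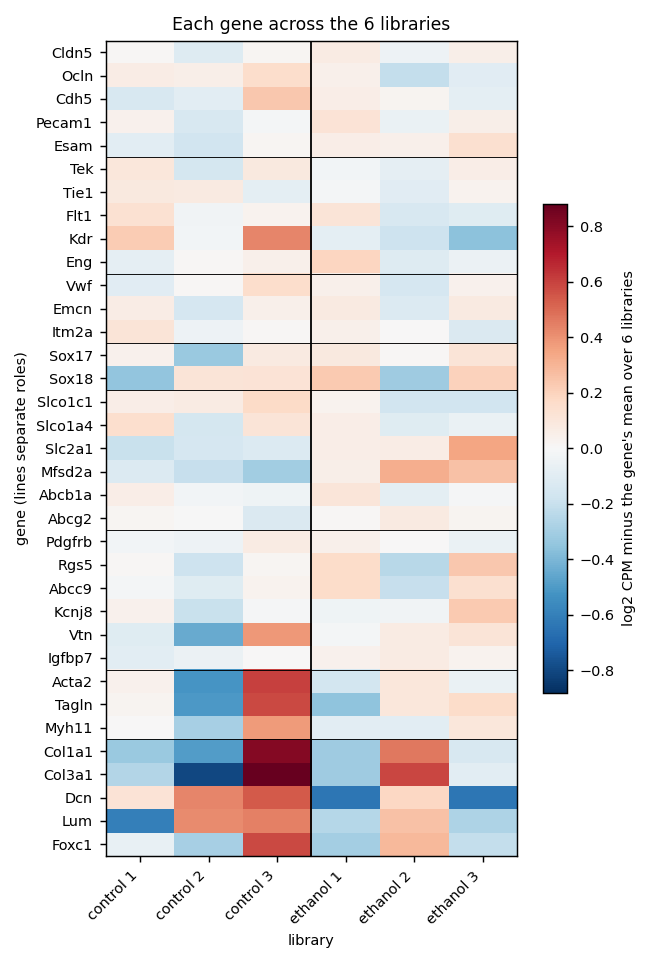
Deviation of each tested gene in each library from its mean over the 6 libraries, in log2 CPM, from blue (below) to red (above), with genes in rows by role and a vertical line between control and ethanol libraries. Control replicate 3 is red for all 5 fibroblast and leptomeningeal genes and all 3 smooth muscle genes, and endothelial rows are pale except Kdr, Slc2a1, Mfsd2a and the Sox genes.

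The 3 classes differed in how far a gene moved between libraries. The ratio of the highest to the lowest library had a median of 1.24 over the endothelial members, from 1.14 (Tie1) to 1.74 (Kdr). It was 1.40 over the mural members, up to 2.18 (Acta2), and 2.26 over the fibroblast members, up to 3.21 (Col3a1). Among the controls alone the median coefficient of variation was 6.35%, 8.42% and 35.7% in these classes, whereas counting error alone gave medians of 2.98%, 2.66% and 2.81%. Control replicate 3 was the highest library for all 5 tested fibroblast members, 5 of 9 mural members and 5 of 21 endothelial members.

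Outside the list, the sum of related genes varied alike, though 1 gene, Ptgds, made up much of it. Ptgds gave 1303 of 2057 CPM in control replicate 3 and 1037 of 1636 CPM in ethanol replicate 2. Whether the genes varied alike one by one was not tested. Summed CPM of 31 further fibroblast and leptomeningeal genes was 946, 918 and 2057 in the controls and 798, 1636 and 1105 after ethanol, again highest in control replicate 3 and ethanol replicate 2. Ptgds, a prostaglandin synthase abundant in leptomeninges and also made by oligodendrocytes and choroid plexus, had 494, 393 and 1303 against 424, 1037 and 625 CPM, and Igf2, made by leptomeninges and choroid plexus, 109, 111 and 204 against 62.8, 144 and 125 CPM. Their log2 fold changes were −0.07 ± 0.48 and −0.35 ± 0.34. Of 29 tested, 1 had an edgeR unadjusted p below 0.05, Col8a1 (2.36, 5.35 and 3.36 against 1.57, 1.57 and 2.63 CPM, −0.94 ± 0.33, p 0.0229), and its groups overlapped. Unlike the sum, Col8a1 was highest in control replicate 2. Among all tested genes 2.61% were lower at that level. All 11 basement membrane genes had values below 0, from −0.13 to −0.02, with a median SE of 0.13, and 0 had an unadjusted p below 0.05. Their summed CPM was 1943, 1621 and 2017 in the controls and 1703, 1579 and 1990 after ethanol, overlapping. Genes of such a list can move together from library to library, so the shared direction is a description only. The most abundant, Sparc (−0.09 ± 0.17) and Agrn (−0.08 ± 0.07), are also made by astrocytes and neurons.

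**Figure D5:**
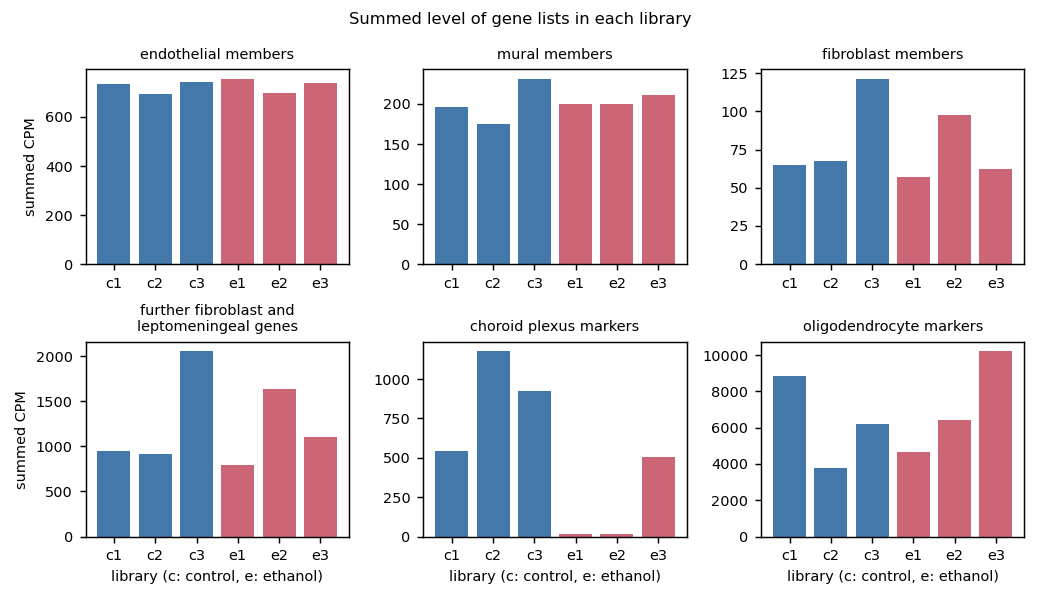
Summed CPM of 6 gene lists in each library, controls in blue and ethanol in red, with every axis starting at 0. Endothelial members lie between 695 and 756 in all libraries, the fibroblast lists are highest in control replicate 3 and ethanol replicate 2, choroid plexus markers are at 15.01 and 16.3 in ethanol replicates 1 and 2, and oligodendrocyte markers follow neither pattern.

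Perivascular macrophages, which share the space of the fibroblasts, gave summed CPM of 12.8, 11.5 and 20.8 in the controls and 15.5, 20.6 and 18.2 after ethanol, with Mrc1 at 0.31 ± 0.21 and Lyve1 at 0.32 ± 0.23. The neuron markers (Map2 −0.03 ± 0.11, Snap25 0.12 ± 0.13) and astrocyte markers (S100b 0.07 ± 0.20, Aqp4 0.07 ± 0.14) had 0 genes with an unadjusted p below 0.05. Of 9 microglia markers 1 was higher at that level, Tmem119, named after its values were seen (0.57 ± 0.16), with Csf1r at 0.11 ± 0.08. Of these 9, 5 had log2 fold changes above 0 and 4 below, with a median of 0.07. Of 9 oligodendrocyte markers none had an unadjusted p below 0.05, with Mbp at 0.24 ± 0.43. Among all tested genes 1.59% were higher and 2.61% lower at an edgeR unadjusted p below 0.05. The share of any of these cell types in the values of the vascular genes was not tested.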

How the data were processed

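Single-end reads of 100 bases from stranded poly(A) libraries of rat amygdala (3 saline, 3 ethanol, each from 2 pooled rats) were processed by the authors. Per the labels and file headers they used STAR 2.7.0f and featureCounts of Subread 1.6.3 on Rnor_6.0 with strand-specific exon counting by NCBI gene, leaving out reads that map to several places or genes; FastQC 0.11.8, R 3.6.2, edgeR and limma are also named in the submitters' processing notes. The deposited values are raw counts per gene. Symbols came from RefSeq tables (29322 of 38445 identifiers matched). Counts were filtered with filterByExpr (minimum count 10, total 15), scaled by TMM and fitted with edgeR 4.0.16 (R 4.3.3, quasi-likelihood test, group only, Benjamini-Hochberg adjustment over all 18141 genes tested, threshold 0.2 as in the study). SE is the log2 fold change divided by the square root of F. CPM are TMM-scaled, TPM use summed exon length, and log2 CPM for permutation tests had a prior count of 2. Alternatives were other scaling, filters, DESeq2 1.42.0, edgeR's likelihood ratio test, limma 3.58.1 (voom), a replicate block and leaving out libraries. The procedure was tested on simulated data. Within-group pairs of libraries differed by 14.3 to 67.6 times counting variance, so none was a duplicate. The members, the additional gene lists and the markers were chosen with earlier results of these data known. All members were named, and of the additional lists the 2 most abundant genes and those with an unadjusted p below 0.05, and of the marker lists the 2 most abundant, except some that are not reported here; other genes named were chosen after their values were seen.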

Additional observations from a re-analysis of the deposited data

How the results depend on the processing

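The 5 members with an unadjusted p below 0.05 kept their sign in all 15 alternative fits, and 15 of the other 30 changed sign in at least 1. The 5 were picked by their p-value in these same libraries, which every fit reuses in whole or in part. The others include genes near 0, such as Abcb1a and Pdgfrb. The kept signs are therefore a description and give the 5 genes no support. Genes with an adjusted p below 0.2 numbered 0 in the reported fit, 75 with DESeq2, 77 with edgeR's likelihood ratio test, 0 to 82 with 1 library left out (82 without ethanol replicate 3, 4 without ethanol replicate 1) and 0 in every other fit. For the members it was 1 (Mfsd2a) with DESeq2 and with the likelihood ratio test, and 0 with 1 library left out. Of all tested genes, 763 of 18141 had an edgeR unadjusted p below 0.05 in the reported fit, in either direction. With 1 library left out this ran from 590 of 18401 (without control replicate 3) to 1638 of 18356 (without ethanol replicate 3). Without ethanol replicate 3, 2 members were higher and 1 lower at that level. Members lower at that level ranged from 1 to 4 with 1 library left out (1 without control replicate 3 and 1 without ethanol replicate 3). They numbered 1 without control replicate 3 and ethanol replicate 2 together. That alternative was added after the data were seen, as was the comparison with other endothelial members. Without these 2 libraries the endothelial median was 0.0856 and the number of additional genes lower was 1. Additional genes higher ranged from 2 to 9 with 1 library left out (9 without control replicate 3) and lower from 2 to 6 (6 without control replicate 1). Medians with 1 library left out ranged from −0.04 to 0.05 (endothelial), −0.03 to 0.14 (mural) and −0.38 to 0.12 (fibroblast). Scaling by library size alone moved the median of all genes to −0.02 and the endothelial median to −0.02. The causes were not tested.

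Same-numbered libraries do not share rats, and their deviations from the group means correlated at 0.03, 0.39 and 0.21 (numbers 1, 2 and 3), with control replicate 1 closer to ethanol replicate 3 (0.30), so the numbers were not taken as pairs. With the replicate block, 0 genes had an adjusted p below 0.2 (smallest 0.463), 1030 had an unadjusted p below 0.05 in place of 763, the members gave 2 higher and 3 lower as before, and 7 additional genes were lower in place of 3.

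The 3 pooled libraries per group limit the precision. Counting error was below the median spread of each class, but for Abcg2 (4.62%), Sox17 (3.98%) and Igfbp7 (1.62%) it exceeded the coefficient of variation of the ethanol libraries (2.55%, 3.71% and 1.46%), and for Kcnj8 (7.19%) it was close to that of the controls (8.42%).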
